A study of Mus musculus with 8 samples.

Results

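Deletion of Setdb1 was examined in mouse pro-B cells kept in culture with interleukin-7 (IL-7), across every gene of the array that carries a name. The changes rest on 4 of the series' 8 arrays: 2 of Setdb1 Δ/Δ (deleted) and 2 of Setdb1 C/C (floxed, not deleted) pro-B cells, chosen by their sample titles. All 4 samples carried a bcl-2 transgene and spent 4 days in medium with IL-7, at 5 ng per µl as the labels write it; whether that unit is meant could not be checked. The other 4 arrays hold pro-B cells of bone marrow, 2 Setdb1 Δ/Δ and 2 Setdb1 C/C, without the transgene. The growth protocol in the labels describes the IL-7 culture for all 8 samples, so that the marrow cells were not cultured rests on their titles and tissue entries alone. The cells came from mouse bone marrow and were purified by flow sorting. The Cre that removed the floxed segment, the strain, the age and the number of animals are not given in the sources used here. Whether both samples of a group were independent cultures or animals is not given either. The spread behind the p-values was estimated from all 8 arrays, the marrow ones included. The p-values therefore cover the spread among arrays within the groups and no more, and that spread may be technical. Of 20416 genes with a probeset of their own, 16050 were bright enough to test.

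Setdb1 is a histone methyltransferase that places the H3K9 trimethyl mark, a mark of silent chromatin, and zinc finger proteins bring it to its sites through the co-repressor Trim28. It is known for keeping retroviral elements, and in several tissues genes of other lineages, from being transcribed. Pro-B cells are the bone marrow precursors that rearrange the immunoglobulin heavy chain locus. IL-7 acts through its receptor and the transcription factor STAT5 to keep them dividing, and the bcl-2 transgene supplies a protein that protects cells from apoptosis.

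Gene values are log2 values, and a change is the deleted mean minus the control mean on that scale. Array medians over genes ran from 5.25 to 5.33, and the 2 arrays of a culture group correlated over genes at r = 0.971 (control) and 0.968 (deleted). Setdb1 itself read 6.84 and 6.45 in the control cultures and 6.66 and 6.99 in the deleted cultures, which overlap. Of its 23 probesets, 7 read higher and 2 lower in both deleted cultures than in both controls. Which probesets lie in the deleted segment is not given in the sources used here, so these readings check nothing about the labels. Of 13 pro-B cell markers tested, Cd79b, Ebf1 and Pax5, which define the B lineage rather than its pro-B stage, lay between 9.65 and 12.11 in all 4 cultures. The mean level of the 13 was 9.40 and 9.55 in the controls and 9.27 and 9.14 in the deleted cultures. Of them 5 were higher and 8 lower after deletion, with a median change of -0.52, and 0 passed with limma. Rag1, for example, read 9.95 and 9.35 against 7.03 and 6.43. The 17 neutrophil granule genes tested had mean levels of 4.63 and 5.39 in control and deleted culture 1, and of 7.67 and 8.18 in control and deleted culture 2. The arrays numbered 2 thus read higher for neutrophil genes in either genotype.

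In the deleted cultures 118 of 16050 genes rose (0.735%) and 114 fell (0.71%) at an adjusted p under 0.05 (limma, Benjamini-Hochberg over all genes tested). Those shares are the background for the risen and fallen counts within the lists further on. Counts of 1 in a list are too small to set against them. Without adjustment, limma gave a p under 0.05 for 2407 of the 16050 genes, the background for such counts within the lists. The largest rises among genes with at least 3 probesets were those of the vomeronasal receptor gene Vmn2r96 (4.59), the predicted gene Gm5111 (3.80), the milk protein gene Lalba (3.37), the sialyltransferase St6galnac5 (3.34), the glycoprotein Thy1 (3.29) and the glycine-cleaving enzyme Gldc (3.17). The largest falls were those of the IgM receptor Faim3 (-3.86), the complement regulator Cd55 (-3.82), the membrane protein Ms4a4c (-3.37), the secreted Angptl1 (-3.12), the inhibitory receptor Btla (-3.08) and the amino acid oxidase Il4i1 (-2.92). Every called gene had its deleted arrays on 1 side of its controls, a separation shown by 22.4% of all genes upward and 21.8% downward. The rises measured from 0.78 to 4.59 (median 1.35), with 19 over 2 on the log2 scale, and 22 of the falls were over 2, with a median fall of 1.38. Fallen genes had a median level of 7.97 in the controls and 6.35 in the deleted cultures, and risen genes reached a median of 7.63.

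**Figure D1:**
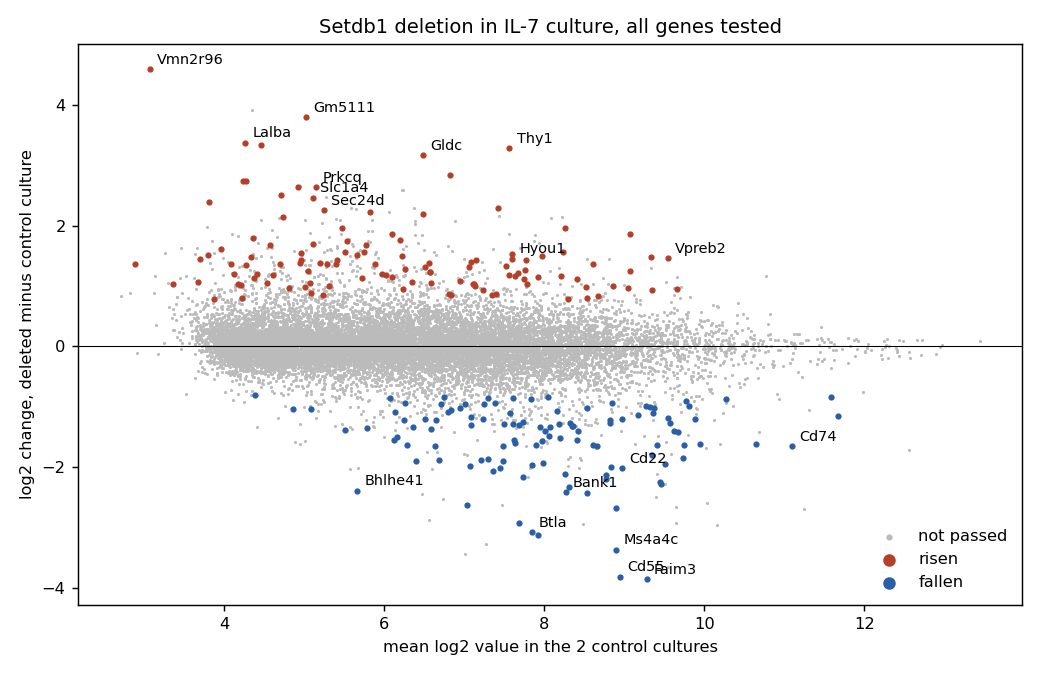
Log2 change with Setdb1 deletion in culture (vertical axis) against the mean log2 value in the 2 control cultures (horizontal axis) for the 16050 genes tested. The 118 risen genes (red) lie mostly at low to middle control levels and the 114 fallen genes (blue) at middle to high ones, and grey points did not pass.

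These counts depend on single arrays. Leaving out 1 array left 0 to 202 risen and 1 to 227 fallen genes, with 0 and 1 without control culture 1, 49 and 19 without control culture 2, 16 and 8 without deleted culture 1, and 3 and 1 without deleted culture 2. They were 15 and 9 without either deleted marrow array and 202 and 227 without either marrow control, and 5 and 3 without both culture arrays numbered 2. All 232 called genes kept their sign under every setting tried that tested them; genes chosen for a large change tend to do so. The counts within gene lists given further on rest on the same arrays: 0 to 3 of the serine and glycine list, 0 to 3 of the stromal list and 0 to 2 of the T-lineage list rose when 1 array was left out.

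Vmn2r96, a receptor of the vomeronasal organ, read 2.50 and 3.63 in the control cultures and 7.97 and 7.34 in the deleted cultures. The rise of 4.59 (SE 0.45, limma adjusted p = 0.0117) started below 4.03, the value under which genes were taken as dim, so its size is uncertain. All 4 of its probesets were higher. Lalba, the milk protein alpha-lactalbumin, read 4.08 and 4.44 against 7.78 and 7.48, a change of 3.37 (SE 0.32, limma adjusted p = 0.0111). The predicted gene Gm5111 read 4.71 and 5.32 in the controls and 8.76 and 8.88 in the deleted cultures. It changed by 3.80 (SE 0.30, limma adjusted p = 0.00982), with all 6 probesets higher. Vmn2r96 and Lalba were below the array medians in both controls and Gm5111 below or at them, and all 3 were well above the medians in both deleted cultures.

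Besides Vmn2r96, 7 genes had both controls under 4.03 and both deleted cultures above it: Lox, B3galt5, Prssl1, V1ra6, Phldb2, Fcrls and Glp1r, with changes from 0.78 (Glp1r, the receptor of glucagon-like peptide) to 2.39 (Lox, which crosslinks collagen). The reverse held for 3 fallen genes. The largest of them, the transcription factor Bhlhe41, read 5.92 and 5.40 in the controls and 3.20 and 3.33 in the deleted cultures.

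Single members rose in the vomeronasal, olfactory and protocadherin lists, and another vomeronasal receptor gene rose outside its list. Over all genes tested 0.735% rose, and counts of 1 are too small to set against that share. The vomeronasal list, taken by gene symbol, had 9 tested genes, of which 1 rose. The other 8 had changes from -0.43 to 0.13, and 57 more were dim. V1ra6, named above and now called Vmn1r42, is a vomeronasal receptor gene that the list missed. It rose by 1.37 (3.04 and 2.72 in the controls against 4.38 and 4.12), read by 1 probeset. Of 195 olfactory receptor genes tested 1 rose, Olfr1342, which a single probeset reads (4.25 and 4.30 against 7.47 and 6.58). Of 29 clustered protocadherins, cell adhesion proteins of neurons, 1 rose, Pcdhgb8, also read by a single probeset. Another 787 olfactory receptor genes and 28 protocadherins were dim. The median change was -0.14 for vomeronasal receptors, -0.09 for olfactory receptors and 0.24 for protocadherins, against 0.01 over all genes. These medians were not stable: the vomeronasal one was 0.11 without both culture arrays numbered 2, and without 1 culture array the olfactory one ran from -0.20 to 0.02 and that of protocadherins from 0.05 to 0.52. With limma 0 of 12 germline genes and 0 of 24 imprinted genes passed, and 4 and 2 had an unadjusted p under 0.05, as had 2407 of all 16050 genes. Another 24 germline and 5 imprinted genes were dim. The germline genes of lowest p were 4930486G11Rik (0.94, limma adjusted p = 0.0515) and Clgn (1.39, limma adjusted p = 0.0587). Singled out after its values were seen, Stag3, a meiotic cohesin, read 5.09 and 5.35 against 7.38 and 7.14 (limma adjusted p = 0.0708).

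**Figure D2:**
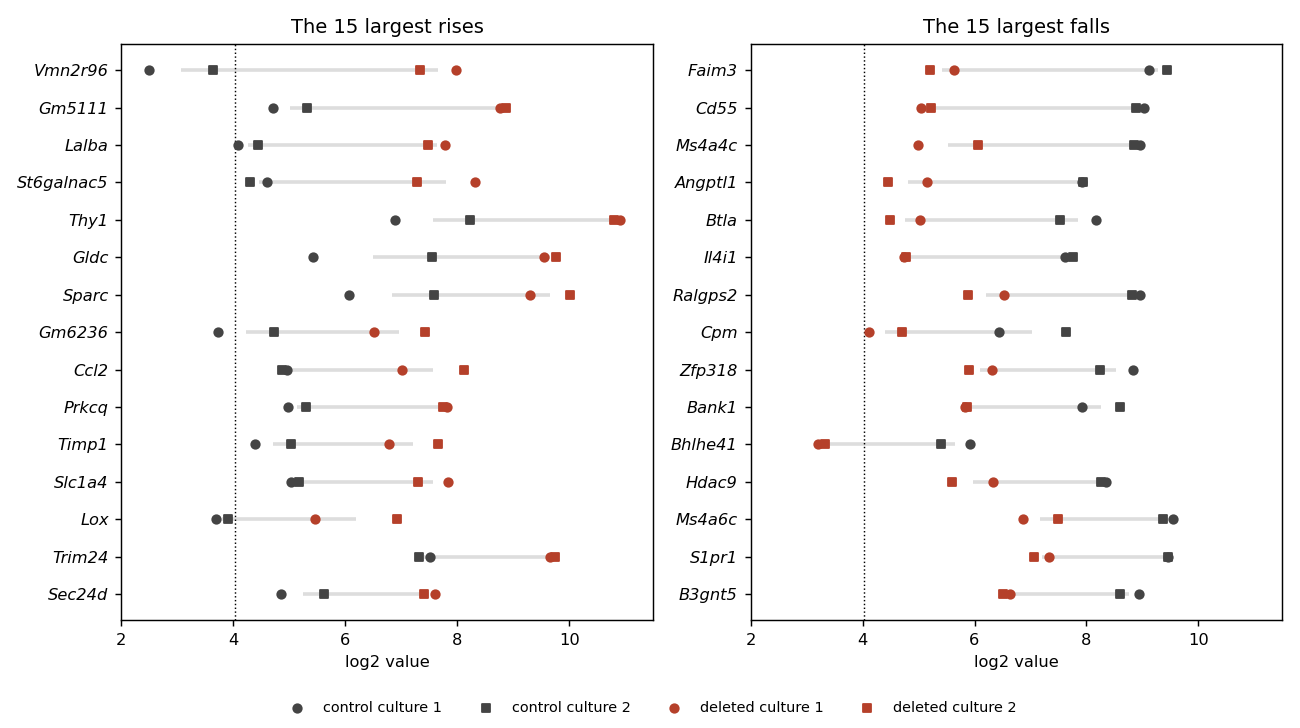
Log2 values in each of the 4 culture arrays (grey, control; red, deleted; circles, arrays numbered 1; squares, arrays numbered 2) for the 15 largest rises (left) and the 15 largest falls (right) among called genes with at least 3 probesets. Grey bars join the group means and the dotted line marks 4.03, the dim value; Vmn2r96 and Lox started below it and Bhlhe41 ended below it.

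Genes of the endoplasmic reticulum (ER) read higher as a group. This compartment folds secreted and membrane proteins with chaperones such as Hspa5 (BiP) and the disulphide isomerases, and when misfolded protein accumulates its sensors activate the transcription factors Xbp1, Atf6 and Atf4, which raise these genes. Atf6 and Xbp1 are known to act on the ER stress response element (ERSE), spelled here as CCAAT and CCACG with 9 free bases between them. The sequences below are the windows around that motif in the promoters of 7 chaperone genes whose values follow. They are from RefSeq (GRCm38.p6), written 5′ to 3′ on the gene's strand with 20 bases on either side, and the capitals mark the motif, which reads as its reverse complement where it starts with CGTGG.
Pdia6, chr12:17266471-17266529, plus strand: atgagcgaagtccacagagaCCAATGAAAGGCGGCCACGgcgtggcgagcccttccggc
Calr, chr8:84847055-84847113, minus strand: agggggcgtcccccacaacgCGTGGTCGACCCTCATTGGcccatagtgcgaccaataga
Hspa5, chr2:34772005-34772063, plus strand: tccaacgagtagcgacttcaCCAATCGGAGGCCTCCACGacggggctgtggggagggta
Creld2, chr15:88819500-88819558, plus strand: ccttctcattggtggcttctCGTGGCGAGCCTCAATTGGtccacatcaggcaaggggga
Dnajc3, chr14:118937807-118937865, plus strand: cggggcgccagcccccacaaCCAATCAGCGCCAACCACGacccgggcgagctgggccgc
Canx, chr11:50325780-50325838, minus strand: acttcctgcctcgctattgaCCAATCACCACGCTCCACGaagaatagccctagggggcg
Ero1lb, chr13:12565662-12565720, plus strand: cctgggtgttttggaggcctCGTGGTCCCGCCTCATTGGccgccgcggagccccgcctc

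The motif was searched on both strands of the 250 bases before the start site. Shares count genes, and a gene with several promoters counts once if any of them holds the motif. The ERSE lay in 8 of 24 ER folding genes (33.3%), in 0.152% of the 12465 tested genes with a promoter and in 0.13% of all 27025 genes with one. It lay in 2 of 96 risen genes (Pdia6 and Calr) and in 0 of 90 fallen genes. A match is a description of these letters. The ER folding list holds genes known to answer to the factors that bind this motif, so its share tells nothing about the deletion. The start of the motif, CCAAT, is also part of the Y box, CTGATTGG in reverse, so the 2 can overlap, as in Dnajc3.

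Of the 29 ER folding genes tested, 27 were higher in the deleted cultures, 5 rose and 0 fell, with a median change of 0.66 against 0.01 over all genes. Hyou1, a chaperone of the ER lumen, read 7.41 and 7.79 in the controls and 9.03 and 9.07 in the deleted cultures, a change of 1.45 (SE 0.21, limma adjusted p = 0.0291). Pdia6, a disulphide isomerase, read 8.51 and 8.71 against 9.87 and 10.07, a change of 1.36 (SE 0.15, limma adjusted p = 0.0169). P4hb, another isomerase, changed by 1.12, the lectin chaperone Calr by 0.95 and Pdia4 by 0.84, all with both deleted arrays above both controls. Hspa5 itself read 9.63 and 9.78 against 10.60 and 10.79, groups that did not overlap, but it missed the threshold (change 0.99, SE 0.20, limma adjusted p = 0.0649). Creld2 (1.29), Dnajc3 (0.88), Canx (0.56) and Hsp90b1 (0.53) were also higher in both deleted arrays without passing. Ero1lb, which oxidises the isomerases and also holds the motif, changed by -0.73 (limma adjusted p = 0.369).

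Without 1 array at a time 0 to 10 of these 29 genes rose, and without 1 culture array the median lay between 0.54 and 0.79. Without both culture arrays numbered 2 the median was 0.71 and 0 passed.

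Of 29 genes that bring new chains into the ER or carry cargo out of it, 4 rose and 0 fell, with a median of 0.35. Sec24d, a cargo subunit of the vesicle coat that leaves the ER, read 4.86 and 5.62 in the controls and 7.61 and 7.40 in the deleted cultures, the largest of these rises (2.26, SE 0.34, limma adjusted p = 0.0342). All 23 of its probesets were higher. Sec61a1, the pore through which new chains enter the ER, changed by 0.98, the signal peptidase subunit Spcs2 by 1.01 and the translocon protein Ssr3 by 0.78. The promoter of Sec24d holds the core of another element of this response, TGACGTGG, found in 0.899% of tested genes with a promoter. Kdelr3 (0.09), Txndc5 (0.54), Txndc11 (-0.55), Ube2j1 (0.29) and Vcp (0.57) also hold it and did not pass, while Timp1 holds it and rose. The window around the core in Sec24d, with the core in capitals, follows.
Sec24d, chr3:123267450-123267495, plus strand: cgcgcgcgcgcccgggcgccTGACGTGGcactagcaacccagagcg

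Of other glycan genes, Rpn1, a subunit of the enzyme that attaches N-glycans, also rose (1.25, SE 0.20, limma adjusted p = 0.0367), as did Magt1 of the same machinery (0.80); both were singled out after their values were seen. Of the 29 translocation and export genes, 0 to 4 rose when 1 array was left out. By contrast 0 of 21 genes of ER-associated degradation passed with limma (5 at an unadjusted p under 0.05, median 0.26).

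Among the 18 sensors and transcription factors of the response, 1 rose and 0 fell. Xbp1 read 7.45 and 8.10 in the controls and 9.06 and 9.35 in the deleted cultures, a change of 1.43 (SE 0.22, limma adjusted p = 0.0353). Atf4 read 8.94 and 9.03 against 9.31 and 9.50, and Ddit3 7.16 and 7.35 against 7.50 and 7.67. Neither passed (limma adjusted p = 0.274 and 0.438), nor did the sensor genes Ern1 (0.81), Eif2ak3 (0.02) and Atf6 (-0.52). Creb3l2, a relative of Atf6 that is known to act on Sec24d and other coat genes in cartilage, read 4.81 and 5.85 against 7.23 and 6.64 (change 1.60, limma adjusted p = 0.139). Arrays do not show the spliced form of Xbp1 or the cleaved form of Atf6, so the activity of these factors was not measured. Among 11 plasma cell genes, which include Xbp1, 1 rose and the median was -0.14.

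Known targets of Atf4 made up the list with the most risen genes in number. Atf4 is made when the kinases that sense ER stress, amino acid shortage or viral RNA slow translation, and it raises genes for the synthesis, import and charging of amino acids. It binds with C/EBP partners to elements spelled here as TGATGNAAN, and the windows for Asns and Chac1, which rose, are shown with the element in capitals (in Chac1 as its reverse complement).
Asns, chr6:7693210-7693252, minus strand: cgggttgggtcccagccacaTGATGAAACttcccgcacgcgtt
Chac1, chr2:119351028-119351076, plus strand: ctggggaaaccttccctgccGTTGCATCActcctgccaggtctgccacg

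Counted by gene, the element lay in 6 of 21 Atf4 targets (28.6%), 3 of 13 tRNA synthetases and 7 of 96 risen genes (7.29%). It also lay in 3 of 90 fallen genes (3.33%) and 2 of 16 MHC class II genes (12.5%). Over tested genes with a promoter the share was 2.53%, and over all genes with one 3.89%. The list was made of known Atf4 targets, so its share tells nothing about the deletion. Fgf21 (-0.22) and Vldlr (-0.05) also hold the element and did not pass. Of 27 Atf4 targets tested, 9 rose and 0 fell, 24 were higher, and the median change was 0.79. Slc1a4, a carrier of serine and alanine, read 5.03 and 5.17 in the controls and 7.83 and 7.30 in the deleted cultures, a change of 2.46 (SE 0.19, limma adjusted p = 0.00982). Asns, which makes asparagine, read 7.89 and 7.30 against 8.89 and 9.38, and Bcat1, which breaks down branched amino acids, read 8.04 and 8.42 against 9.61 and 9.97. Asns changed by 1.54 and Bcat1 by 1.56, and in all 3 genes the lower deleted array lay well above the higher control. The glycine carrier Slc6a9 (1.55), the alanine transaminase Gpt2 (1.20), the proline enzyme Aldh18a1 (1.18), the translation inhibitor Eif4ebp1 (1.18), the glutathione-degrading Chac1 (1.14) and the arginine carrier Slc7a1 (1.12) rose as well. Slc7a5, the carrier of large neutral amino acids, read 8.49 and 8.57 against 10.07 and 9.90 without passing (1.45, SE 0.29, limma adjusted p = 0.0631). Other targets, Slc38a2 (0.01), Cebpg (-0.02) and Vldlr (-0.05) had changes near 0. Leaving out 1 array left 0 to 12 of these genes risen, and the median without 1 culture array lay between 0.79 and 0.92.

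All 20 genes of the tRNA synthetase list, enzymes that load amino acids onto tRNA together with the tRNA exporter Xpot, were higher, with a median of 0.62. With limma 0 of them passed (11 at an unadjusted p under 0.05). The median without 1 culture array lay between 0.37 and 0.77, and it was 0.42 without both arrays numbered 2. The largest change was that of Gars, the glycine enzyme, at 8.79 and 8.56 against 9.39 and 9.67 (0.85, SE 0.17, limma adjusted p = 0.0665). Among 19 enzymes of serine, glycine and one-carbon metabolism 18 were higher and 2 rose, with a median of 0.71. Gldc, the decarboxylase that splits glycine, read 5.42 and 7.56 in the controls and 9.55 and 9.77 in the deleted cultures, a change of 3.17 (SE 0.57, limma adjusted p = 0.0482). Its controls differed by more than 2 units, and without control culture 1 the change was 2.10. Aldh1l2, the mitochondrial enzyme that oxidises formyl-folate, read 3.86 and 4.31 against 5.65 and 5.27. The serine-making enzymes Phgdh (0.85), Psat1 (0.82) and Psph (0.76) and the mitochondrial Shmt2 (1.03) were higher in both deleted arrays and did not pass.

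Of 35 glycolysis and hypoxia genes 30 were higher (median 0.59), 23 had an unadjusted p under 0.05 and 1 rose. That gene was Pdk1, the kinase that keeps pyruvate out of the mitochondria, at 6.82 and 7.06 against 7.97 and 8.09. Of 17 genes of fatty acid synthesis and desaturation 4 rose (median 0.33): the desaturases Fads3 (1.69) and Fads2 (1.27), the elongase Elovl6 (1.18) and the synthase Fasn (1.03). Fads3 read 5.02 and 5.21 in the controls and 6.58 and 7.03 in the deleted cultures, and Fads2 7.73 and 7.78 against 8.94 and 9.10. Scd1, another desaturase, went the other way at -1.06 (limma adjusted p = 0.337). Of 19 cholesterol synthesis genes 1 rose, Dhcr7, the last enzyme of the pathway (0.86, median of the list 0.32). When 1 array was left out, 0 to 5 fatty acid genes, 0 to 3 glycolysis genes and 0 to 2 cholesterol genes rose. Without 1 culture array the medians lay between 0.18 and 0.42 (fatty acid), 0.38 and 0.75 (glycolysis) and 0.15 and 0.39 (cholesterol), and the fatty acid median was 0.07, with 0 risen, without both arrays numbered 2.

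Lists of general growth genes had smaller medians than the ER folding and Atf4 lists. The median change was 0.05 over 64 ribosomal protein genes, 0.25 over 82 genes of mitochondrial respiration, 0.18 over 37 genes of DNA replication and 0.07 over 31 of mitosis. In that order 42, 72, 30 and 19 genes were higher in the deleted cultures, against 8238 of the 16050 genes tested. With limma 0 genes passed in these lists, and 3, 8, 2 and 2 of them had an unadjusted p under 0.05. Myc, which is known to drive biosynthetic genes, read 9.29 and 9.75 against 10.55 and 10.62 (1.06, SE 0.37, limma adjusted p = 0.237).

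**Figure D3:**
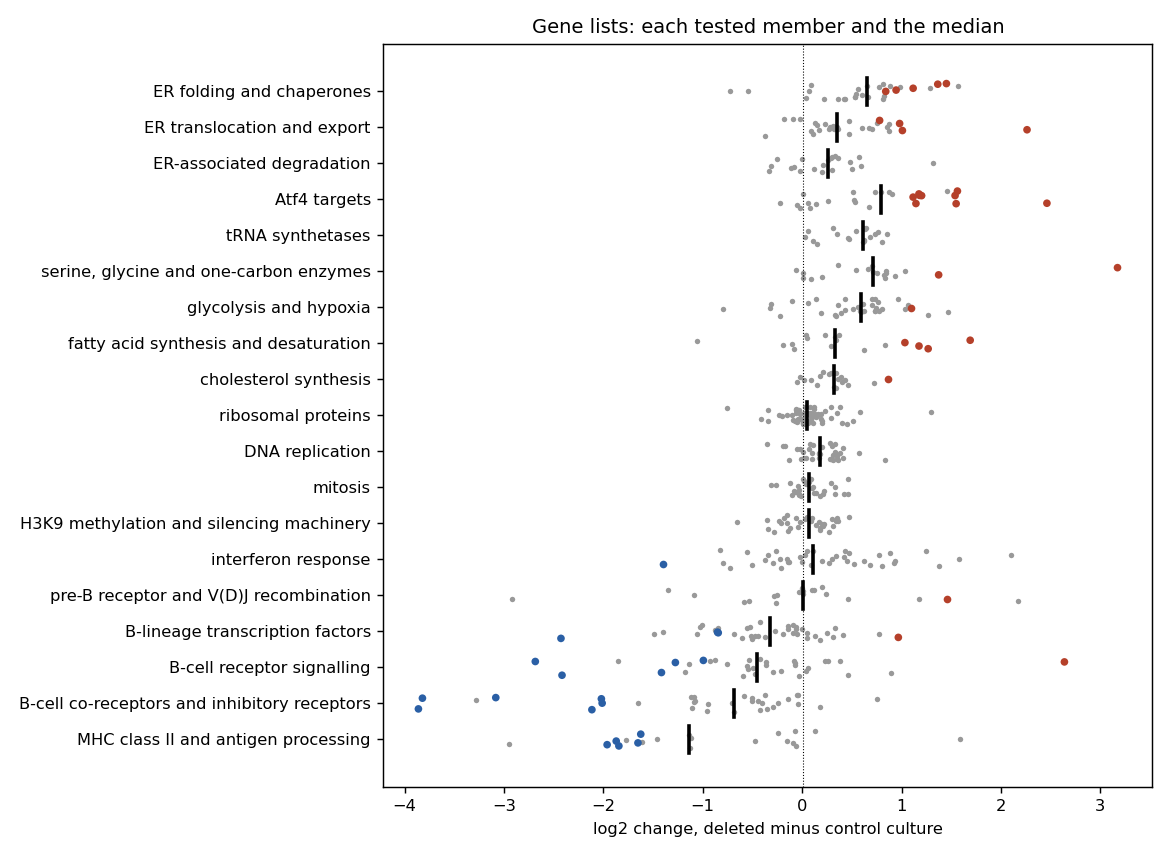
Log2 change with Setdb1 deletion in culture (horizontal axis) for each tested member of 19 gene lists (rows). Black bars are list medians, red and blue points rose or fell past the threshold, grey points did not pass, and the dotted line is the median over all genes (0.01); ER folding (0.66) and Atf4 targets (0.79) lie to the right and MHC class II genes (-1.14) to the left.

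The genes that fell include the machinery by which B cells present antigen. MHC class II molecules carry peptides to the surface; their α and β chains assemble with the invariant chain Cd74, the H2-DM proteins load the peptide, and the coactivator Ciita switches all of them on through the X and Y boxes of their promoters. Counted by gene, the Y box, CTGATTGG, lay in 4 of 16 class II list genes (25%) and in 5.65% of tested genes with a promoter. It also lay in 8 of 24 ER folding genes (33.3%), in 4.44% of fallen genes and in 5.21% of risen genes. Class II genes are known for this box, so their share tells nothing about the deletion. The window of H2-Aa, an α chain that fell, is given with the box in capitals.
H2-Aa, chr17:34287847-34287894, minus strand: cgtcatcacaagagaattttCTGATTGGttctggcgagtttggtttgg

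Of the 20 genes of this list 18 were lower, 5 fell and 0 rose, with a median change of -1.14. Cd74 read 11.01 and 11.18 in the control cultures and 9.65 and 9.23 in the deleted cultures, and H2-Aa 10.43 and 10.86 against 9.10 and 8.95. Ciita read 6.97 and 7.61 against 5.67 and 5.18, a fall by 1.87 (SE 0.31, limma adjusted p = 0.038). Cd74 and H2-Aa remained among the brighter genes after deletion, while Ciita ended within 2 units of the dim value. H2-DMb1, read by 1 probeset, fell by 1.96 and the thiol reductase Ifi30, which unfolds antigens in the lysosome, fell by 1.84. H2-DMb2 (-2.94), H2-Ob (-1.78), H2-Eb1 (-1.61) and H2-Ab1 (-1.46) were lower in both deleted arrays and did not pass, H2-Eb1 narrowly (limma adjusted p = 0.0529). The near-identical H2-DMb1 and H2-DMb2 may share signal on the array. Among the factors that bind the boxes, none passed: the change was -0.48 for Rfx5, -0.24 for Rfxank, -0.07 for Rfxap, and between -0.15 and -0.07 for Nfya, Nfyb and Nfyc. The protease Ctsl read 4.93 and 6.47 against 6.77 and 7.82 (1.59, limma adjusted p = 0.393). The macrophage genes Csf1r and Cybb went opposite ways. Csf1r read 4.74 and 6.36 against 7.21 and 7.45, and Cybb 8.97 and 9.46 against 8.02 and 8.92. Neither passed (limma adjusted p = 0.321 and 0.311). The 17 monocyte and macrophage genes tested, markers of cells that can carry class II, had mean levels of 5.38 and 6.34 in the controls and 6.26 and 6.95 in the deleted cultures. In culture 15 of them were higher and 2 lower, and 0 passed with limma. Their median change was 0.73 in culture and -2.20 in marrow. The part of such cells in the class II changes was not tested in either setting. Between 0 and 8 class II genes fell when 1 array was left out, and without 1 culture array the median lay between -1.61 and -0.82. Without both arrays numbered 2 it was -0.72 and 0 fell.

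The list of co-receptors and inhibitory receptors also holds other surface proteins of B cells, such as Cd55. Of its 33 genes 31 were lower and 6 fell, with a median of -0.68, and 0 rose. Cd55, which shields cells from complement, read 9.02 and 8.88 in the controls and 5.04 and 5.21 in the deleted cultures, a 14.1-fold fall (limma adjusted p = 0.000663). Faim3, a receptor for immunoglobulin M, read 9.12 and 9.44 against 5.63 and 5.21, and the inhibitory receptor Btla 8.17 and 7.52 against 5.02 and 4.50. All 3 genes were bright in the controls and within 2 units of the dim value after deletion. The Fc receptor-like protein Fcrl1 fell by 2.11, the sialic acid-binding inhibitor Cd22 fell by 2.02 and Cd83 fell by 2.01. Fcer2a (CD23) read 6.39 and 8.16 against 4.03 and 3.95 and did not pass (limma adjusted p = 0.0678). The exceptions to the direction were Cd81 (0.18) and Lair1 (0.75). Of 13 Ms4a genes tested 2 fell, Ms4a4c (8.95 and 8.85 against 5.00 and 6.07) and Ms4a6c (9.55 and 9.38 against 6.86 and 7.50), while Ms4a1, which encodes CD20, read 9.34 and 9.75 against 6.29 and 5.47 without passing (limma adjusted p = 0.065). Leaving out 1 array left 1 to 10 of the co-receptors fallen, and 1 without both culture arrays numbered 2.

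Of 34 genes of B-cell receptor signalling 5 fell, 1 rose and 26 were lower (median -0.45). The scaffold Bank1 read 7.93 and 8.60 in the controls and 5.83 and 5.87 in the deleted cultures, and the exchange factor Ralgps2 8.96 and 8.82 against 6.53 and 5.88. The kinase Syk, which couples the pre-B receptor to its signals, read 9.87 and 9.48 against 8.32 and 8.21, a fall by 1.42 (SE 0.26, limma adjusted p = 0.0491). Prkcb, the protein kinase C of B cells, fell by 1.28 and the phosphatase Ptpn6 (SHP-1) fell by 0.99. The 1 risen member was Prkcq, the protein kinase C of T cells, at 4.98 and 5.30 against 7.82 and 7.74 (2.64, SE 0.22, limma adjusted p = 0.00982). The 2 kinase genes thus moved apart in the same arrays. Cd79a and Cd79b, the signalling chains of the receptor, read -0.54 and -0.75 and did not pass, nor did Btk (-0.29) or Blnk (-0.50). From 0 to 7 genes of this list fell with 1 array left out.

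Among 28 homing and adhesion receptors 3 fell, the sphingosine phosphate receptor S1pr1 (9.45 and 9.45 against 7.34 and 7.07), the chemokine receptor Ccr7 (9.68 and 9.33 against 8.01 and 7.09) and the cannabinoid receptor Cnr2 (6.05 and 6.52 against 4.48 and 4.81). The median of that list was -0.09, and between -0.19 and -0.06 without 1 culture array. Without 1 array 0 to 6 of them fell.

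Of 40 transcription factors of the lineage tested, 30 were lower, 3 fell and 1 rose, with a median of -0.33. Over all genes tested 0.71% fell and 0.735% rose. Zfp318, known for its part in the switch to IgD, read 8.83 and 8.24 against 6.31 and 5.90 (a fall by 2.43, SE 0.31, limma adjusted p = 0.022). Pou2f2 (Oct-2) fell by 0.85 and Klf3 fell by 0.84, while Lef1, a factor of early B cells, read 8.88 and 9.21 against 9.96 and 10.06 and rose by 0.97. Pax5 (-0.60, limma adjusted p = 0.183), Ebf1 (-0.52) and Foxo1 (-0.55) were lower and did not pass. With 1 array left out 0 to 4 fell and 0 to 1 rose, and the median without 1 culture array lay between -0.35 and -0.17.

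Of 20 genes of the pre-B receptor and of V(D)J recombination 1 rose and 0 fell. Vpreb2, a surrogate light chain that pairs with a new heavy chain, read 9.37 and 9.72 in the controls and 11.11 and 10.90 in the deleted cultures, a rise of 1.46 (SE 0.19, limma adjusted p = 0.024). Its partner Igll1 (10.42 and 11.12 against 11.87 and 12.02) and Dntt, which adds bases at heavy chain joints (6.06 and 8.81 against 9.36 and 9.85), were higher without passing. Vpreb2 shares sequence with Vpreb1, which read 0.47, so their signals may not be separate. The recombinase gene Rag1 read 9.95 and 9.35 against 7.03 and 6.43 and lay just outside the threshold (-2.92, SE 0.53, limma adjusted p = 0.0504), and Rag2 read -1.08 (limma adjusted p = 0.139). Over the 20 genes 8 had an unadjusted p under 0.05, and the median was 0.00. Igh-6, the μ heavy chain gene, fell by 1.15 from 11.72 and 11.62 to 10.56 and 10.47. Of 19 stage markers 1 fell, Cd24a (11.61 and 11.55 against 10.80 and 10.69). Cd2 (9.82 and 9.25 against 7.32 and 5.31) and Il2ra (9.37 and 7.93 against 7.04 and 6.87), both first seen at the pre-B stage, were lower without passing (limma adjusted p = 0.0753 and 0.205). Fewer cells of a stage and less RNA per cell cannot be told apart in these bulk samples.

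The IL-7 pathway showed no common direction. Of 25 genes 1 rose, the STAT5-induced inhibitor Cish, at 5.99 and 6.39 in the controls and 7.91 and 7.99 in the deleted cultures (1.76, SE 0.22, limma adjusted p = 0.0206). The receptor gene Il7r read 9.99 and 9.75 against 8.98 and 8.94 (-0.91, limma adjusted p = 0.0903). Socs2 (0.80) and Socs3 (0.74) were higher, Pim2 (-1.18) and Bcl6 (-1.06) lower, none of them past the threshold, and the median was 0.06. With limma 0 of 14 BCL2 family genes passed (6 at an unadjusted p under 0.05). The apoptosis-promoting Bcl2l11 (Bim) read 8.30 and 7.57 against 10.09 and 9.20, its relative Bmf 8.06 and 7.50 against 6.86 and 6.17, and the protective Bcl2l1 8.23 and 7.68 against 7.15 and 6.50. Bcl2 itself read 5.17 and 5.58 against 5.65 and 5.18, and whether its probesets see the transgene is not given in the sources used here. Of 26 p53 targets 1 fell, Rrm2b, a subunit of ribonucleotide reductase (-1.54), and Cdkn1a read 0.01. With 0.735% risen and 0.71% fallen over all genes tested, the single calls in the IL-7 and p53 lists say nothing about those lists.

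The silencing machinery gave no call. Over 32 genes of H3K9 methylation and its partners the changes ran from -0.65 (Setdb2) to 0.48 (Dnmt3b) with a median of 0.07, and with limma 0 passed (2 at an unadjusted p under 0.05). Of 22 retrovirus receptors and restriction factors 1 rose and 1 fell. Slc7a1, the entry receptor of ecotropic murine leukaemia viruses and also counted among the Atf4 targets, read 7.61 and 7.87 against 8.83 and 8.89. Samhd1, which depletes the nucleotides needed for reverse transcription, read 10.12 and 9.78 against 8.16 and 8.50. Of 41 interferon response genes 1 fell, Slfn2 (-1.40), and the median was 0.11. Of 278 zinc finger genes named Zfp, 1 rose (Zfp760, 1.36) and 3 fell, with a median of -0.10. With 0.735% risen and 0.71% fallen over all genes tested, the few calls in the retrovirus, interferon and Zfp lists say nothing about those lists. Retroviral elements themselves have no gene symbol here and were not analysed.

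Thy1, a surface protein of T cells, fibroblasts and some progenitors, read 6.89 and 8.23 in the controls and 10.90 and 10.80 in the deleted cultures, a change of 3.29 (SE 0.39, limma adjusted p = 0.0204). With Prkcq it was 1 of 2 risen genes among 20 of the T lineage, whose median was 0.22. The defining T-cell genes Cd3d and Cd3g lay between 3.87 and 4.31 in all 4 cultures, around the dim value, and Cd3e between 5.18 and 6.34 with overlapping groups. The mean level of the T-lineage list was 4.90 and 5.07 in the controls and 5.51 and 5.49 in the deleted cultures.

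Of 16 stromal and endothelial markers 3 rose, 12 were higher, and the median was 0.44. Sparc, a protein of bone matrix, read 6.07 and 7.58 against 9.30 and 10.02 (2.84, SE 0.49, limma adjusted p = 0.0417), Ccl2, a monocyte chemokine, 4.96 and 4.87 against 7.01 and 8.12, and Postn, a matrix protein of fibroblasts, 3.86 and 4.05 against 5.71 and 5.44. In each of the 3 both deleted arrays lay above both controls. Without 1 culture array the median lay between 0.28 and 0.57. Outside that list, and singled out after their values were seen, Timp1 (2.51), Lox (2.39), Spp1 (2.24), Myh10 (2.19), Timp3 (1.96), Cav2 (1.80), Aebp1 (1.43), Ecm1 (1.43), Col12a1 (1.20), Prrx1 (1.19) and Cald1 (1.02) also rose. The mean level of the stromal and endothelial list was 4.84 and 4.94 in the control cultures and 5.36 and 5.66 in the deleted cultures. Col1a1 read 6.37 and 6.31 against 7.25 and 7.08 and Col1a2 6.05 and 5.92 against 6.55 and 6.87, neither past the threshold, while Lum, Dcn, Cdh5 and Kdr lay between 3.22 and 4.66 in all 4 cultures. The part of RNA from such cells in the matrix rises was not tested.

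Several enzymes that build surface glycans changed. Of 18 sialyltransferases St6galnac5 (4.61 and 4.31 against 8.31 and 7.28) and St6galnac3 (4.41 and 4.67 against 5.74 and 5.44) rose and St6gal1 (9.55 and 9.17 against 8.36 and 8.14), which makes the ligand of Cd22, fell. Singled out after their values were seen, the glycosyltransferase genes B3gnt3 (1.57), B3galt5 (1.52), Galnt2 (1.51) and Ggta1 (0.95) rose, and B3gnt5, which starts lacto-series glycolipids, fell by 2.19.

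Some called genes lie side by side on the chromosome. In the RefSeq gene order 11973 pairs of tested coding genes are adjacent; 1 or both members were called in 329 of them, both in the same direction in 9, and in opposite directions in 0. Sfmbt2, a Polycomb group protein, and its neighbour Prkcq changed by 2.15 and 2.64, with all deleted arrays above 6.8 for Sfmbt2 (6.83 and 6.93) against 4.69 and 4.77 in the controls, while the next genes, Itih5 (0.39) and Pfkfb3 (0.75), did not pass. Gm5111 and Repin1 changed by 3.80 and 1.86, between Rarres2 (-0.31) and Zfp775 (-0.06). Cish and Hemk1 changed by 1.76 and 1.36, between Mapkapk3 (0.14) and 6430571L13Rik (0.09). In these places the genes beside the pair did not pass. St6galnac5 and St6galnac3 (3.34 and 1.05), Fads3 and Fads2 (1.69 and 1.27) and D10Wsu102e and Aldh1l2 (1.23 and 1.37) also rose together, and the adjacent Fads1 read 0.84 (limma adjusted p = 0.453). Pairs that fell were Ralgps2 and Angptl1 (-2.68 and -3.12), Bank1 and Ppp3ca (-2.42 and -1.19) and Clec2i and Clec2g (-1.51 and -1.04). Angptl1 overlaps Ralgps2, so their signals may not be separate, and adjacent relatives such as the Fads and Clec2 genes may share probe sequence.

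**Figure D4:**
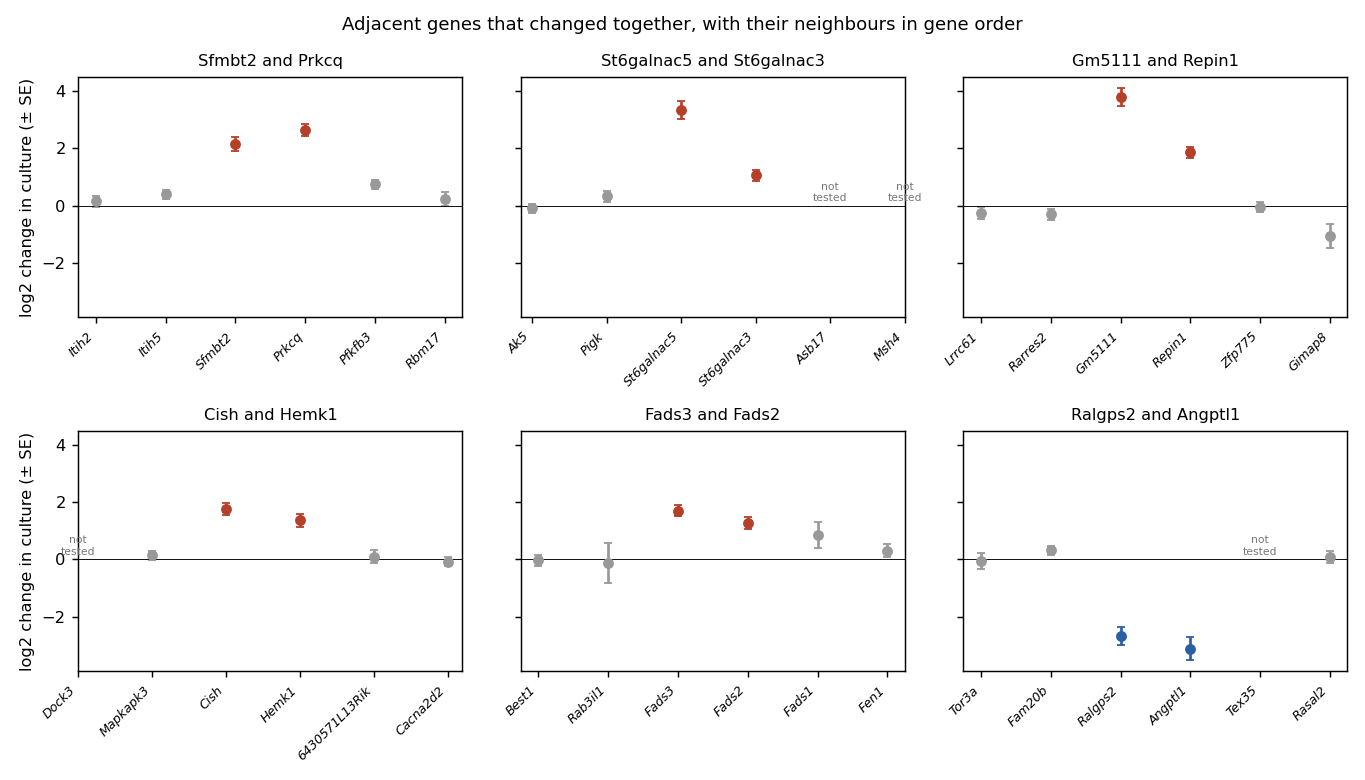
Log2 change in culture with its standard error (vertical axis) for 6 pairs of adjacent called genes and the 2 genes on either side in RefSeq order (horizontal axis; spacing is not to scale). Red points rose, blue points fell and grey points did not pass, as with Itih5 (0.39) and Pfkfb3 (0.75) beside Sfmbt2 and Prkcq.

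Set beside the marrow arrays, which share no array with the cultures but differ from them in the transgene and, by their titles, in the culture, most called genes had the same sign of change. Of the 118 genes risen in culture 104 were also higher in deleted marrow cells (88.1%), and of the 114 fallen genes 108 were lower (94.7%), against a share of 58.6% with equal signs over all genes. The change was smaller in marrow for 113 and 104 of them, with median marrow changes of 0.44 and -0.74; choice by size in culture favours this. In marrow itself 0.0374% of genes rose and 0.0935% fell, among them 3 of the genes risen in culture (Lalba, Fads2 and Akap5) and 8 of the fallen (Cd55, Cd74, H2-Aa, Bank1, Rgs2, Aim1, Arhgap17 and Gm6545). Over all 16050 genes the changes in the 2 settings correlated at r = 0.258 (rho = 0.265), a description across genes, which are not replicates.

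The test of the difference between culture and marrow passed for 0 genes with limma (1216 at an unadjusted p under 0.05, smallest adjusted p 0.309), so the sizes that follow are set side by side as values. Cd74 (-1.65 in culture, -3.23 in marrow) and Bank1 (-2.42 and -3.45) had larger falls in marrow. St6galnac5 (3.34 and 0.33), Slc1a4 (2.46 and 0.24), Timp1 (2.51 and -0.27) and Repin1 (1.86 and 0.16) had their change in culture with values near 0 in marrow. The median change of Atf4 targets was 0.79 in culture and 0.12 in marrow, of ER folding genes 0.66 and 0.41, of class II genes -1.14 and -0.91 and of co-receptors -0.68 and -0.77. The median over DNA replication genes was 0.18 in culture and 0.45 in marrow.

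**Figure D5:**
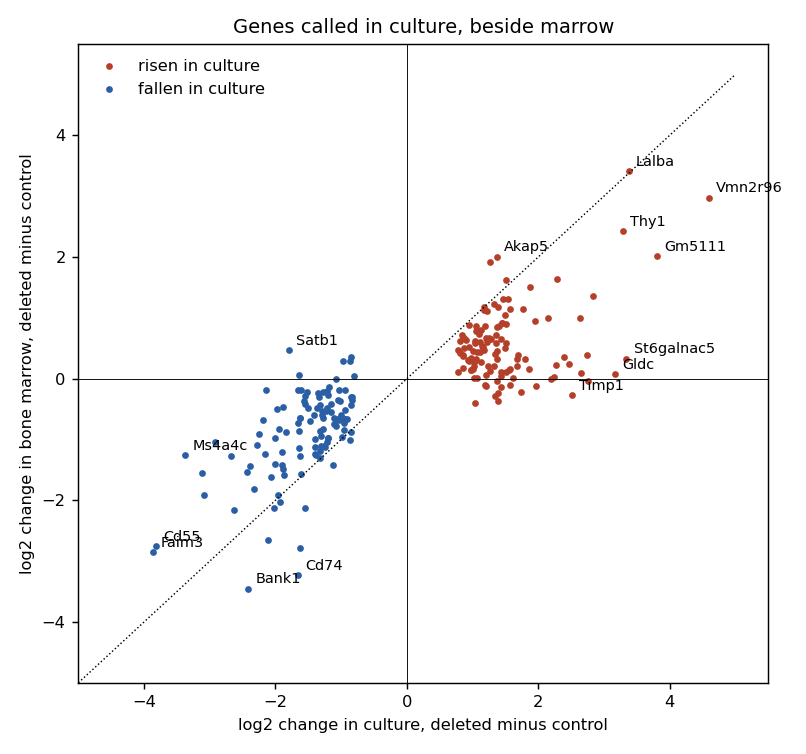
Log2 change in bone marrow (vertical axis) against the log2 change in culture (horizontal axis) for the 118 risen (red) and 114 fallen (blue) genes of the culture comparison; the dotted line marks equal changes. Lalba lies on the line (3.37 and 3.41), Cd74 and Bank1 below it on the side of larger falls in marrow, and St6galnac5, Gldc and Timp1 near 0 in marrow.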

How the data were processed

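For each of 241576 exon-level probesets the authors deposited 1 log2 value per array, from 8 arrays. RMA in Expression Console (version 1.2.0.20) made them, per the submitters' processing notes. RNA was amplified before labelling, per the labels' protocols, which can compress large changes. Probesets with 1 gene symbol (212097; 4475 had several and 25004 none) were summarised per gene by median polish, a median of 8 probesets each. Genes above the 25th percentile (4.03) in at least 2 arrays were tested (16050; 4366 were dim). A model of 4 group means over all 8 arrays was fitted with limma 3.58.1 (R 4.3.3), two-sided, with Benjamini-Hochberg adjustment and a threshold of 0.05; 4 residual and 3.53 prior degrees of freedom support each spread. Data were simulated for the culture comparison with 200 of 16050 genes changed. Of changes of 1, 2 and 3, 43.3%, 98.5% and 95.5% were called, with 8 unchanged genes called. The simulated noise was independent between arrays, whereas deviations of same-numbered culture arrays correlated at 0.337, so these shares may not hold for the data. The 2 arrays per group limit the precision. Named genes are Setdb1, the 15 largest rises and falls with at least 3 probesets and separate groups, up to 8 each way that cross the dim value, list members past the threshold (up to 6 each way) or else the 2 of lowest p, and the genes nearest the threshold; any other gene was picked with its values in view. Gene lists are described, not tested as sets. Members and lists were chosen with earlier results of these data known. Promoters and gene order come from RefSeq (GRCm38.p6), searched with Python 3.11.15 (pandas 2.3.3, matplotlib 3.10.9 for plots); 12465 tested genes matched a promoter. Alternatives changed the summary, filter, normalisation, moderation, block, covariate and arrays.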

Additional observations from a re-analysis of the deposited data

Results flagged for a closer look

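Some named genes had both deleted arrays on 1 side of their controls in culture and on the other side in marrow. Fcrls changed by 1.04 in culture and -0.40 in marrow, Cox6a2 by 0.87 and -0.56, Csf1r by 1.78 and -2.20, Bst2 by 0.96 and -0.85, Rora by 0.39 and -0.19 and Itga2b by 0.14 and -0.30. Rpl23a read -0.76 in culture and 0.37 in marrow, and Bcl2l1 -1.13 and 0.41. In limma's test of the difference the adjusted p of these genes lay between 0.309 (Fcrls) and 0.659 (Itga2b), so none passed.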

How the results depend on the processing

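The risen and fallen counts (118 and 114) were 129 and 130 with the mean over probesets, 112 and 101 without a filter, 119 and 123 with a stricter one, 144 and 131 with trended, robust moderation, 112 and 128 with centred arrays and 112 and 102 after cyclic loess. They were 61 and 97 in the culture arrays alone (fewer residual degrees of freedom) and 85 and 68 with neutrophil genes as a covariate, whose cause was not tested. Leaving out 1 array gave 0 to 202 risen genes (709 at an unadjusted p under 0.05 in limma at 0) and 1 to 227 fallen genes, and leaving out both culture arrays numbered 2 gave 5 and 3. A group left with 1 array was assumed to vary like the other groups. The difference between culture and marrow ranged over 0 to 379 genes above and 0 to 82 below when 1 array was left out, with 379 and 82 without marrow control 2 and 3 above without control culture 2 (main 603 and 613 at an unadjusted p under 0.05). With replicate number as a block the counts were 116 and 92 within condition (69 and 69 shared) and 58 and 57 over all arrays; deviations of same-numbered arrays correlated at 0.337 in culture and 0.0547 in marrow, and nothing in the labels pairs them. With 1 array left out the change of Mpo lay between -0.0052 and 1.6594 and that of Setdb1 between -0.0143 and 0.3741, and Setdb1 was at -0.1782 without both arrays numbered 2; neither passed the test.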

Other observations

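Among the other genes that fell in the deleted cultures were several that act between surface receptors and the nucleus. Tec, a kinase of the Btk family, read 8.56 and 8.26 in the controls and 6.78 and 6.95 in the deleted cultures (a fall by 1.54, limma adjusted p = 0.0254). The adaptor Bcar3 went from 8.92 and 8.75 to 6.99 and 6.67, Swap70, an actin-binding signalling protein of B cells, fell by 1.41, the adaptor kinase Irak2 of Toll-like receptor signalling fell by 1.20, the NF-κB inhibitor Nfkbia fell by 1.07 and the phosphatase Ptprc (CD45) fell by 0.87. The TGF-β receptor Tgfbr2 fell by 1.11 while the ligand gene Tgfb3 read 7.47 and 7.58 against 9.04 and 8.67 and rose by 1.33. Satb1, a chromatin organiser of lymphocytes, read 9.51 and 9.19 against 7.35 and 7.75 and fell by 1.80, and Cbx7, a Polycomb reader, fell by 1.29.

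Some metabolic and detoxifying genes rose outside the lists. The glutathione transferase Gstt2 read 8.25 and 8.26 in the controls and 10.32 and 10.10 in the deleted cultures (1.96, limma adjusted p = 0.00982), and Gstp1 9.25 and 9.42 against 11.02 and 10.63. The metallothionein Mt2 rose by 1.74, the AMP-activated kinase subunit Prkaa2 by 1.68 and the medium-chain acyl-CoA dehydrogenase Acadm by 1.43. Trim24, a chromatin reader, read 7.51 and 7.32 against 9.65 and 9.75 and rose by 2.29. Apart from Trim24, all genes of both paragraphs were picked with their values in view.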
